A study of Mus musculus with 24 samples.

Results

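A set of 8 genes widely used as readouts of serum response factor (SRF) and of the coactivator YAP was followed across mouse embryonic fibroblasts under endoplasmic reticulum (ER) stress. They were Ccn1 (older name Cyr61), Ccn2 (older name Ctgf), Ankrd1, Acta2, Tagln, Cnn1, Actg2 and Myl9. Members were taken by gene name, through the accession of each array probe, and not by any measured value. Each of the 8 genes had 1 probe, and all 8 were among the 14462 genes tested, out of 20154 genes with a named probe. RNA was measured on 24 one-colour Agilent arrays in 10 groups, an untreated and a treated group for each of 5 genotypes. The genotypes were wild type, Perk -/- (Perk-null, without the ER stress kinase PERK), Atf4 -/- (Atf4-null, without the transcription factor ATF4), eIF2a A/A (eIF2a that carries alanine at the serine that PERK phosphorylates) and Tg(Fv2E-PERK), a transgenic PERK fusion. Treated wild-type, Perk-null, Atf4-null and eIF2a A/A cells received tunicamycin, an inhibitor of N-linked glycosylation that causes ER stress, at 2 ug/mL for 12 h. Treated Fv2E-PERK cells received AP for 12 h, named in the labels by this abbreviation and without a dose, and no Fv2E-PERK cells received tunicamycin. Wild type had 4 arrays a group and the other groups had 2. The labels do not say whether arrays of a group came from separate cultures, so a p-value covers only the spread of these samples, which may be technical, and each mutant stands for 1 line as labelled.

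SRF is a DNA-binding factor that acts with 2 kinds of partner. Its partners of the MRTF family are held in the cytoplasm by monomeric actin and enter the nucleus when actin filaments assemble, where they switch on genes of the contractile cytoskeleton. Ternary complex factors, its other partners, link it to growth factor signalling and to immediate-early genes. YAP and its relative TAZ are held back by the Hippo kinases and, once nuclear, work through TEAD factors, also in response to stiffness and spreading. Fibroblasts that raise the contractile genes are known as myofibroblasts, a state also driven by transforming growth factor beta (TGF-beta). The 3 genes best known as YAP targets encode the secreted matricellular proteins CCN1 and CCN2 and the nuclear ankyrin repeat protein ANKRD1. The other 5 encode smooth muscle alpha-actin (Acta2), smooth muscle gamma-actin (Actg2), the actin-binding proteins transgelin (Tagln) and calponin 1 (Cnn1), and a regulatory light chain of myosin (Myl9).

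The promoters of 4 of these genes are shown because they carry the letters that SRF and TEAD factors are known to bind. RefSeq promoter windows of build GRCm38.p6, from 250 bases before to 50 bases after the start of the gene, were held for 5 of the 8 genes. The 250 bases before the start are printed here, 5′ to 3′ on the strand of the gene, with motif matches in capitals. Both strands were searched for the CArG box, the SRF element, and for GGAATG with its reverse complement CATTCC, the core of the TEAD element. A CArG box in its strict form occurred in 1.63% of 32851 promoters of this length, and in 9.98% when 1 G or C was allowed in the core of 6 bases, a looser search that includes the strict one. GGAATG or CATTCC occurred in 14.7%.
Ccn1, chr3:145649986-145650235, minus strand: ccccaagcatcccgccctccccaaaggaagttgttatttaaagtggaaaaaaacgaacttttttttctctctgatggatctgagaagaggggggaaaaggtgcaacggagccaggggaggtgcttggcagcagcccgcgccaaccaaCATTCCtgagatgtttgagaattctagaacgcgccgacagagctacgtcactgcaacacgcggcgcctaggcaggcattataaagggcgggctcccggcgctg
Ankrd1, chr19:36119845-36120094, minus strand: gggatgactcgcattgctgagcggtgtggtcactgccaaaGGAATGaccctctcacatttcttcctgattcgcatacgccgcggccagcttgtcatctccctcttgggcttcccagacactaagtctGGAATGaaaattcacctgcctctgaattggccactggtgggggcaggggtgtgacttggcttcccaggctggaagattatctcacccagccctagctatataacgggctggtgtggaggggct
Acta2, chr19:34255374-34255623, minus strand: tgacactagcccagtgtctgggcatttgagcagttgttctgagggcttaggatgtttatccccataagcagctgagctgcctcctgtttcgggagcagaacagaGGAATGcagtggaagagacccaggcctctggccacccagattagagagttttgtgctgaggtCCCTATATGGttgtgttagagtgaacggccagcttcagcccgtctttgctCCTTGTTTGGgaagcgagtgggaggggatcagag
Myl9, chr2:156775214-156775463, plus strand: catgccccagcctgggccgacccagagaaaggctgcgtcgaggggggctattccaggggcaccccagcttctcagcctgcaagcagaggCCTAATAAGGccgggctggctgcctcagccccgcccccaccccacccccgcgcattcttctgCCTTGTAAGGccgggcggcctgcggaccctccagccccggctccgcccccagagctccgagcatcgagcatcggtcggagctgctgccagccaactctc
Myl9 held a strict match, CCTAATAAGG, and a looser match, CCTTGTAAGG. Acta2 held 2 looser matches, CCCTATATGG and CCTTGTTTGG, and 1 GGAATG. Ankrd1 held GGAATG at 2 places, and Ccn1 held CATTCC once. The window of Cnn1 held none of these letters. Windows of Ccn2, Tagln and Actg2 were not analysed here. A match is a description of the letters and was not tested as a binding site.

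The arrays were scanned in 3 runs, and these bear on every comparison below. Atf4-null cells were scanned in run 1 with wild-type replicates 1 and 2, Perk-null cells in run 2 with the other two wild-type replicates, and Fv2E-PERK and eIF2a A/A cells in run 3 without wild type. In run 1 a first slide carried the treated and a second slide the untreated arrays, so slide and treatment cannot be told apart there. In run 2 the wild-type arrays shared a slide with untreated Perk-null replicate 1 and treated Perk-null replicate 2. The other Perk-null arrays, untreated replicate 2 and treated replicate 1, lay on another slide. The wild-type arrays of runs 1 and 2 also differed in origin, since Xist was well above background on all 4 wild-type arrays of run 1 and on 0 of run 2, and the Y-linked genes Ddx3y and Eif2s3y the other way round. Wild-type values of the 8 genes and counts of the gene lists are therefore also given by run, and whether they differ by run or by origin cannot be told apart. Perk-null cells, also of run 2, had Xist above background on 2 of 2 arrays in each group and Ddx3y and Eif2s3y on 0, the reverse of wild type in that run. The median standard deviation per gene between arrays of a group was 0.209 to 0.314 in run 1, 0.0722 to 0.150 in run 2 and 0.0573 to 0.0895 in run 3, on the log2 scale. Between 45.1% and 58.2% of probes were well above background. Atf4 lay between -4.27 and 2.79 on the Atf4-null arrays and at 6.56 or higher on every other array. The probe of Eif2ak3, the gene of PERK, was above background on the Perk-null arrays and does not check that label. Of 12 fibroblast markers, 9 were well above background on all arrays. The smooth muscle markers Lmod1 and Kcnmb1 were above background on no array, as were Myod1, Myf5, Ckm and Myh3 of 8 skeletal muscle markers and Actc1 and Ryr2 of 7 cardiac ones. Markers above background on all arrays numbered 2 of 8 for smooth muscle, 2 of 5 for pericytes, 2 of 5 for endothelium, 1 of 3 measured for blood cells, 2 of 4 for neurons and 0 of 6 for epithelium. Since the samples are bulk cultures, fewer cells of a type and less RNA per cell cannot be told apart.

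Levels are given as log2 of the processed signal over the 75th percentile of the same array, so 0 is the signal of that percentile, and levels of different probes are not compared. In untreated cells the contractile genes fell into the same broad order, with eIF2a A/A cells at the top for 4 of the 5 and the Perk-null or Fv2E-PERK cells at the bottom. Acta2 was 6.02, 6.82, 7.52 and 7.56 in wild-type replicates 1 to 4, 7.35 and 7.47 in Atf4-null, 7.81 and 7.84 in eIF2a A/A, 3.72 and 3.74 in Fv2E-PERK, and 0.83 and 0.49 in Perk-null cells. Tagln was 6.57, 7.16, 7.58 and 7.72 in wild type, 7.48 and 7.42 in Atf4-null, 8.57 and 8.56 in eIF2a A/A, 4.54 and 4.59 in Fv2E-PERK, and 3.45 and 2.24 in Perk-null cells. For both genes the Fv2E-PERK and Perk-null arrays lay below all others, without overlap. Myl9 had the same low groups, with 3.50 and 3.60 in Fv2E-PERK and 1.65 and 1.19 in Perk-null cells against 5.39 or more on every other untreated array. Cnn1 was highest in wild-type cells of run 1, at 3.21 and 4.07, and those arrays overlapped with eIF2a A/A cells at 3.13 and 3.29. Its wild-type arrays of run 2 were far lower, at 1.04 and 1.21, and its lowest levels were in Fv2E-PERK cells, at -3.00 and -2.78. Actg2 was 3.50 and 3.55 in eIF2a A/A cells and was not well above background on any of the 4 Perk-null arrays, the only arrays on which a member missed that level. Acta2 and Actg2 encode actins of nearly the same sequence as other family members, and cross-hybridisation of their probes was not tested.

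Among the YAP target genes, Ccn2 kept the broad order of the contractile genes, Ccn1 differed from it at the top and Ankrd1 departed most. In untreated Fv2E-PERK cells Ccn1 was 4.07 and 4.07, and Ccn2 was 2.71 and 2.77. Among untreated cells both were lowest in Perk-null cells, Ccn1 at 2.24 and 3.34 and Ccn2 at -0.44 and 0.56. Ccn1 was highest in untreated Atf4-null cells, at 6.15 and 6.22, followed by eIF2a A/A at 5.98 and 5.89, and was 5.48, 5.38, 4.72 and 4.73 in wild-type replicates 1 to 4. Ccn2 was 7.75 and 7.91 in untreated eIF2a A/A cells, above every other array of the series. Untreated wild-type arrays lay between 4.58 and 5.01 for Ccn2, and those of Atf4-null cells, at 4.14 and 5.75, spanned them. Ankrd1 was 3.01 and 2.46 in wild-type cells of run 1 and 0.59 and 0.82 in those of run 2, and its highest levels were in eIF2a A/A cells, at 3.67 and 3.84. Untreated Fv2E-PERK cells, low for the contractile genes, stood at 3.15 and 3.18 for Ankrd1, above all 4 wild-type arrays. The 2 untreated Atf4-null arrays were far apart for Ankrd1, at -1.20 and 1.58. No group of run 3 was repeated in another run, so its eIF2a A/A and Fv2E-PERK levels against the rest are descriptions across runs and were not tested.

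**Figure D1:**
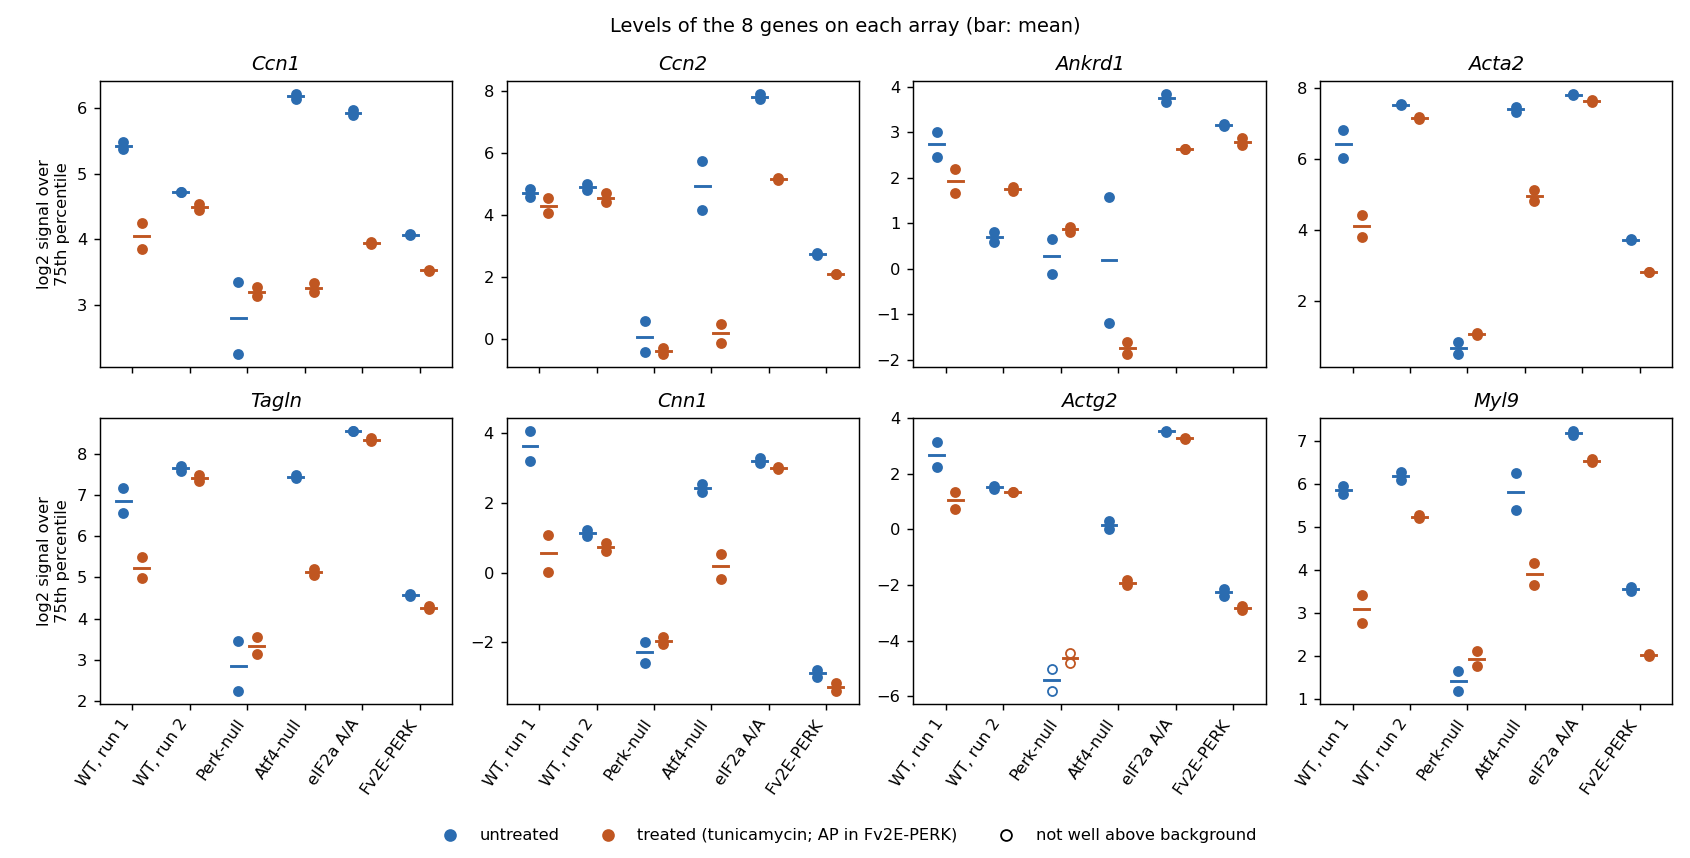
Level of each of the 8 genes on every array (y axis, log2 signal relative to that array's 75th percentile, own scale per gene), by genotype and, for wild type, by run (x axis). Dots are arrays, bars are means, blue is untreated and orange treated, and open dots are not well above background; the 4 Perk-null arrays lie below all others for Acta2, Tagln and Actg2, and Actg2 has open dots there alone.

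In wild-type cells 6 of the 8 genes were lower with tunicamycin at an adjusted p under 0.05 in limma's test. These were all 5 contractile genes and Ccn1, while 16.3% of all tested genes fell. The median change over the 8 genes was -0.92, against 0.07 over all genes. Myl9 fell most, by 1.86 ± 0.30 (standard error, adjusted p = 0.000178, n = 4 against 4), followed by Cnn1 at -1.75 ± 0.42 (adjusted p = 0.00369) and Acta2 at -1.34 ± 0.29 (adjusted p = 0.00197). Tagln changed by -0.93 ± 0.27, Actg2 by -0.91 ± 0.27 and Ccn1 by -0.80 ± 0.22. Ccn2 changed by -0.39 ± 0.28 and Ankrd1 by 0.12 ± 0.46, and neither passed the test. Treated arrays lay below all untreated ones for Ccn1, Actg2 and Myl9, and the ranges overlapped for the other 5 genes. How many of all genes separated in this way was not counted. Tagln and Actg2 lost their calls without untreated replicate 2 (adjusted p = 0.0603 and 0.0614) or without treated replicate 1 (adjusted p = 0.0593 and 0.0683). From the 8 wild-type arrays alone only Myl9 was called (adjusted p = 0.0126), where 3843 of all genes were called in either direction.

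Those means join 2 unlike pairs of wild-type arrays. In run 1 Acta2 went from 6.02 and 6.82 to 3.81 and 4.42, and in run 2 from 7.52 and 7.56 to 7.13 and 7.20. Cnn1 went from 3.21 and 4.07 to 0.03 and 1.08 in run 1, and from 1.04 and 1.21 to 0.61 and 0.84 in run 2. Myl9 went from 5.76 and 5.96 to 2.76 and 3.40 in run 1, and from 6.09 and 6.27 to 5.20 and 5.28 in run 2. In each of these genes treated arrays were lower in both runs, and the fall was larger in run 1. With the wild-type arrays of each run as groups of their own, a model chosen after the data were seen, 6 genes were lower in run 1, where 16.7% of all genes were lower. In run 2 only Myl9 was, at -0.94 ± 0.27 (adjusted p = 0.0213), where 9.04% of all genes were lower. The difference between the runs passed the test for Cnn1 (-2.69 ± 0.48), Acta2 (-1.93 ± 0.32), Myl9 (-1.84 ± 0.38) and Actg2 (-1.48 ± 0.40), and 4.75% of all genes fell more in run 1. Ccn2 changed by -0.41 in run 1 and -0.36 in run 2, and the difference between the runs was -0.05 ± 0.57. Ankrd1 moved in opposite directions, from 3.01 and 2.46 to 1.66 and 2.19 in run 1 and from 0.59 and 0.82 to 1.72 and 1.80 in run 2. Neither of its changes passed the test in this model, nor did the difference of -1.86 ± 0.80 (adjusted p = 0.19). Fitted from the arrays of run 2 alone, the higher value of Ankrd1 there was called (1.05 ± 0.24, adjusted p = 0.0204). The summed level of the 12 fibroblast markers, in units of the 75th percentile, also fell with treatment, from 667 and 764 to 454.9 and 534.2 in run 1 and from 1001 and 1021 to 755 and 763.4 in run 2. The summed smooth muscle markers were 36.7 and 37.57 in untreated and 35.92 and 37.31 in treated cells of run 1. In run 2 they were 22.57 and 23.87 against 20.86 and 21.06. The part of these markers, of slide, run and cell origin in the differences was not tested.

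In Atf4-null cells all 8 genes fell with tunicamycin, where 17.1% of all genes fell. Each gene's treated arrays lay below its untreated ones. The share of all genes separated in this way was not counted, and treated and untreated arrays lay on different slides. The median change over the 8 genes was -2.28, against -0.04 over all genes. Ccn2 stood at 4.14 and 5.75 in untreated and at -0.14 and 0.49 in treated cells, a fall of 4.78 ± 0.39 or 27.4-fold (adjusted p = 1.68e-06, n = 2 against 2), and only 4 of all tested genes fell further. Ccn1 went from 6.15 and 6.22 to 3.33 and 3.19, a change of -2.93 ± 0.31 (adjusted p = 1.6e-05). Ankrd1 changed by -1.93 ± 0.65 (adjusted p = 0.0358), but its lower untreated array, at -1.20, was close to the treated ones at -1.87 and -1.60. Acta2 went from 7.35 and 7.47 to 4.81 and 5.13, a change of -2.44 ± 0.41 (adjusted p = 0.000553). Tagln changed by -2.32 ± 0.38, Cnn1 by -2.24 ± 0.59, Actg2 by -2.08 ± 0.39 and Myl9 by -1.93 ± 0.42. The summed smooth muscle markers, in units of the 75th percentile, went from 28.0 and 31.5 to 12.2 and 13.6 in the same cells. The sum of the 3 blood cell markers went from 9.75 and 17.7 to 27.6 and 87.5, with only 1 of them, Itgam, above background in these cells. On the treated wild-type arrays of run 1 that sum was 9.51 and 64.2. The summed fibroblast markers were 783.6 and 1327 in untreated and 862.3 and 891.4 in treated cells. The 75th percentile of treated replicate 1 was 111 intensity units, against 285 to 366 on the other 3 arrays. The part of these in the result was not tested. The calls rest on a spread shared with all arrays. From the 4 Atf4-null arrays alone limma called 0 of the 8 genes, with 7 at an unadjusted p under 0.05, and 0 of all tested genes. From the arrays of run 1 alone it called 4, namely Ccn1, Ccn2, Acta2 and Tagln, where 253 of all genes were called. Ankrd1 lost its call without untreated replicate 2 (-0.54, adjusted p = 0.528) or without either treated replicate (adjusted p = 0.136 and 0.0833), and Cnn1 without treated replicate 1 (adjusted p = 0.0811).

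Set against wild type, Atf4-null cells differed most in Ccn2. The wild-type arrays serve in the comparisons with all 3 mutants, so these are not independent of each other. The Atf4-null response was lower for 3 of the 8 genes, where 19.6% of all genes were lower, namely Ccn2 (-4.39 ± 0.48, adjusted p = 3.01e-05), Ccn1 (-2.12 ± 0.38, adjusted p = 0.00101) and Tagln (-1.39 ± 0.47, adjusted p = 0.036). Against the wild-type arrays of run 1 alone, which lay on the same slides, 2 genes were lower, where 20.8% of all genes were, Ccn2 by -4.37 ± 0.57 and Ccn1 by -1.55 ± 0.34. Acta2 then differed by -0.13 ± 0.32 and Actg2 by -0.44 ± 0.40, and neither difference passed the test. Tagln lost its call (-0.69 ± 0.42), and the differences of Cnn1 and Myl9 turned from -0.50 and -0.06 to 0.85 ± 0.48 and 0.85 ± 0.38, none of them past the test.

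**Figure D2:**
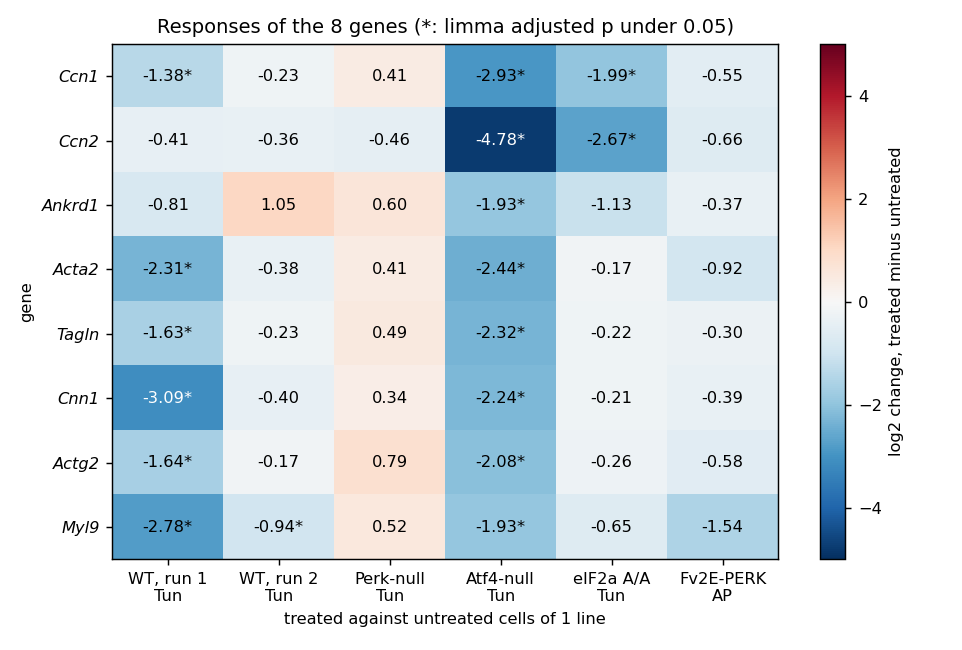
Log2 change of each gene (rows), treated minus untreated cells, in the 5 lines with wild type split by run (columns). Colour runs from blue (lower in treated cells) to red (higher), the printed number is the change, and a star marks a limma adjusted p under 0.05; Atf4-null cells have 8 stars, and eIF2a A/A cells have stars at Ccn1 and Ccn2 alone.

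In eIF2a A/A cells Ccn1 and Ccn2 fell, and none of the 5 contractile genes passed the test. Ccn2 went from 7.75 and 7.91 to 5.18 and 5.14, a fall of 2.67 ± 0.39 or 6.35-fold (adjusted p = 0.00114, n = 2 against 2). Ccn1 went from 5.98 and 5.89 to 3.96 and 3.93, a fall of 1.99 ± 0.31 or 3.97-fold (adjusted p = 0.0017). Ankrd1 went from 3.67 and 3.84 to 2.62 and 2.63, a change of -1.13 ± 0.65 that did not pass the test. These 2 genes were the only members called, where 1.81% of all genes were lower. Acta2 went from 7.81 and 7.84 to 7.63 and 7.69, and its change was -0.17 ± 0.41. Tagln changed by -0.22 ± 0.38, Cnn1 by -0.21 ± 0.59, Actg2 by -0.26 ± 0.39 and Myl9 by -0.65 ± 0.42, none of which passed the test. Treated arrays lay below untreated ones for all 8 genes, but the share of all genes separated in this way was not counted. From the 4 eIF2a A/A arrays alone 4 genes were called, Ankrd1 and Myl9 (adjusted p = 0.0209) besides Ccn1 and Ccn2. The summed fibroblast markers went from 1350 and 1406 to 1138 and 1286 with treatment. The smooth muscle markers went from 39.03 and 39.48 to 28.15 and 28.52, and the part of both in these changes was not tested.

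The eIF2a A/A response was lower than that of wild type for Ccn2 (-2.28 ± 0.48, adjusted p = 0.00421) and Ccn1 (-1.19 ± 0.38, adjusted p = 0.0428), where 10.1% of all genes were lower. With the replicate numbers as a block, 1 of these calls was left, and Ccn1 also missed the threshold without any 1 of the 4 eIF2a A/A arrays (adjusted p = 0.107 to 0.129). The Atf4-null and eIF2a A/A responses share no array and were also set against each other, a comparison chosen after the data were seen. Of the 8 genes, 4 fell further in Atf4-null cells, where 7.74% of all genes did, Acta2 (-2.27 ± 0.58, adjusted p = 0.0204), Tagln (-2.10 ± 0.54, adjusted p = 0.0207), Ccn2 (-2.11 ± 0.56, adjusted p = 0.0225) and Actg2 (-1.82 ± 0.54, adjusted p = 0.0402). Cnn1 differed by -2.03 ± 0.83, Myl9 by -1.28 ± 0.60, Ccn1 by -0.94 ± 0.44 and Ankrd1 by -0.80 ± 0.91, none past the test. These 4 calls are not firm, since leaving out any 1 of the 4 eIF2a A/A arrays or treated Atf4-null replicate 1 left 0, leaving out untreated Atf4-null replicate 2 left 1, and the replicate block left 1. Line and run cannot be told apart in this comparison.

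**Figure D3:**
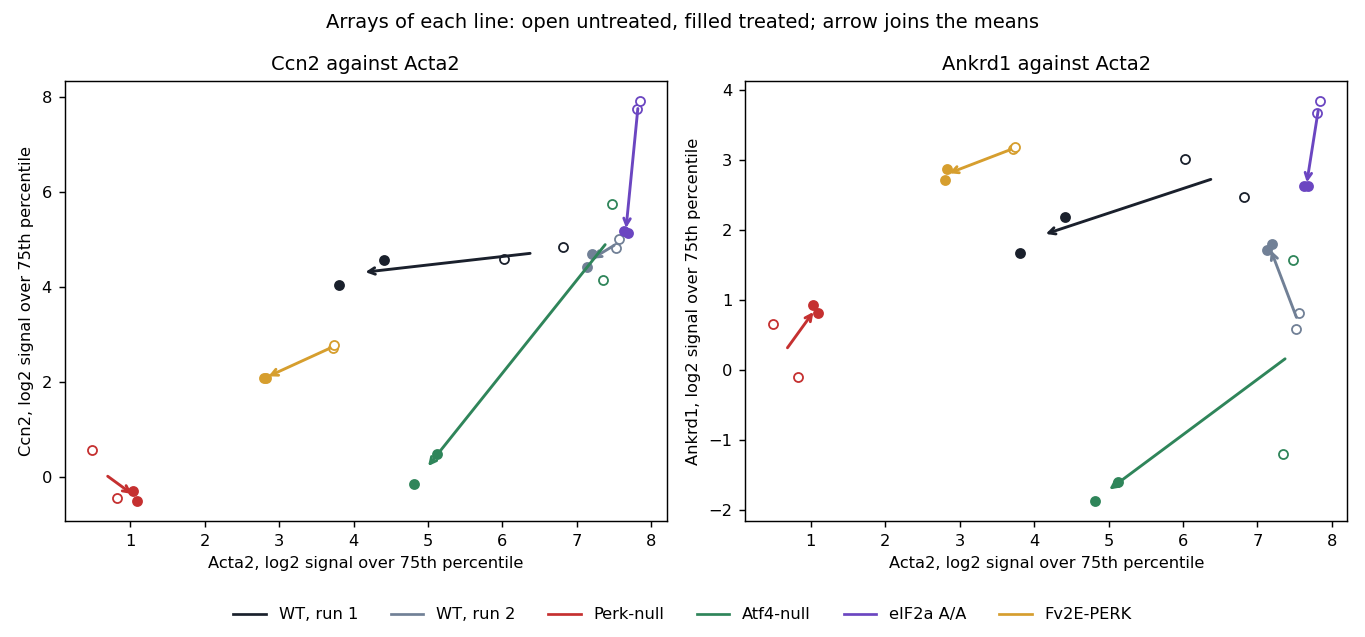
Level of Ccn2 (left, y axis) and Ankrd1 (right, y axis) against Acta2 (x axes), all as log2 signal over the 75th percentile, for the arrays of each line. Open circles are untreated and filled circles treated arrays, and each arrow joins the means of a line; the eIF2a A/A arrow is nearly vertical in both panels, the arrow of wild type in run 1 nearly horizontal for Ccn2, and the Atf4-null arrow runs down along both axes.

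In Perk-null cells none of the 8 genes passed the test with tunicamycin (0 at an adjusted p and 0 at an unadjusted p under 0.05 in limma's fit to all arrays). From the arrays of run 2 alone Acta2, Actg2, Myl9 and Ankrd1 were higher at an unadjusted p of 0.0217 to 0.0478 but not at an adjusted one (0.134 to 0.2). In these cells 1.87% of all genes rose and 0.408% fell. Changes ran from -0.46 ± 0.39 for Ccn2 to 0.60 ± 0.65 for Ankrd1 among the 7 genes above background. Acta2 was 0.83 and 0.49 in untreated and 1.10 and 1.03 in treated cells, and Myl9 was 1.65 and 1.19 against 1.77 and 2.10. Treated arrays lay slightly above untreated ones for these 2 genes and Ankrd1, while the arrays of Ccn1, Ccn2, Tagln and Cnn1 overlapped. How many of all genes separated so was not counted. All of the 8 genes but Ankrd1 started from a level below that of untreated wild-type cells, given below. Against the wild-type response the Perk-null response was higher for 4 genes, where 6.53% of all genes were, Myl9 (2.38 ± 0.52, adjusted p = 0.00721), Acta2 (1.75 ± 0.51, adjusted p = 0.0328), Actg2 (1.69 ± 0.47, adjusted p = 0.0273) and Ccn1 (1.21 ± 0.38, adjusted p = 0.0486). The value of Actg2 rests on Perk-null arrays that were not well above background. Against the wild-type arrays of run 2 alone 1 gene was called, Myl9 at 1.46 ± 0.38 (adjusted p = 0.0277), where 4.21% of all genes were higher. The replicate block left 0 of the 4 calls, and leaving out either treated Perk-null array left 1.

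In Fv2E-PERK cells given AP none of the 8 genes passed the test in the shared model, in which 2.79% of all genes rose and 1.28% fell. In limma's test 2 of the 8, Myl9 and Acta2, had an unadjusted p under 0.05. All 8 genes had both treated arrays below both untreated ones, with differences from -0.30 to -1.54. The share of all genes separated in this way was not counted, and duplicate arrays of run 3 lay close together. Myl9 went from 3.50 and 3.60 to 1.99 and 2.04, a change of -1.54 ± 0.42 (adjusted p = 0.0558, n = 2 against 2). Acta2 went from 3.72 and 3.74 to 2.83 and 2.80, a change of -0.92 ± 0.41 (adjusted p = 0.27). The remaining 6 changes lay between -0.66 ± 0.39 for Ccn2 and -0.30 ± 0.38 for Tagln, with a median over the 8 genes of -0.56 against 0.08 over all genes. From the 4 Fv2E-PERK arrays alone, which carry a much smaller spread, 7 of the 8 genes were called lower by limma, all but Cnn1, with Myl9 at -1.54 ± 0.07 (adjusted p = 0.00578). The summed fibroblast markers went from 469.8 and 507.5 to 282.3 and 290.4. The smooth muscle markers went from 18.53 and 19.78 to 15.75 and 16.99, and the part of both in these decreases was not tested. No untreated or AP-treated line without the fusion was measured beside them in that run other than untreated eIF2a A/A cells, and the effect of AP alone was not analysed here.

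Among the comparisons tested, the largest differences of Acta2, Tagln, Cnn1 and Myl9 lay between untreated Perk-null and untreated wild-type cells. In Perk-null cells 7 of the 8 were lower, all but Ankrd1, where 24.8% of all genes were lower. Acta2 was lower by 7.36 ± 0.39 on the log2 scale, and its fitted level was 165-fold below that of wild type (adjusted p = 1.86e-09, n = 2 against 4), with 20 of all genes further down. This fold rests on the run term: the difference was -6.32 between the plain group means, and the fold was 118 against the wild-type arrays of run 2. Actg2 was at least 80.3-fold lower between the plain group means, with the Perk-null arrays set to the lowest signal well above background. Its limma test used the measured signals instead (adjusted p = 9.66e-10). Myl9 differed by -5.22 ± 0.40, Tagln by -5.15 ± 0.36 and Cnn1 by -4.10 ± 0.55, which was 17.1-fold, and 10.8-fold against run 2 alone. Among the YAP target genes Ccn2 differed by -4.86 ± 0.37, or 29.1-fold, with -0.44 and 0.56 in Perk-null cells against 4.58 to 5.01 in wild type. Ccn1 differed by -2.22 ± 0.29 (adjusted p = 2.38e-05), and its Perk-null arrays, at 2.24 and 3.34, lay below all wild-type ones. Ankrd1 differed by -0.89 ± 0.60 and did not pass the test. Against the wild-type arrays of run 2 alone 7 genes were again lower, where 24.7% of all genes were, with Acta2 at -6.88 ± 0.23 and Actg2 at least 53.5-fold lower. Those wild-type arrays differed from the Perk-null ones in Xist and the Y-linked genes, so genotype and origin of the line cannot be told apart here. Epithelial and fibroblast markers moved with this difference. The summed level of the 6 epithelial markers, in units of the 75th percentile, was 44.2 to 58.4 on the Perk-null arrays and at most 1.38 on all others. Nearly all of that sum in untreated Perk-null cells was the signal of Krt18, a keratin. On the log2 scale Krt18 was 5.43 and 5.71 there and at most 0.28 on other untreated arrays. Cdh1, the epithelial cadherin, was above background in no other untreated group. Of the 6 markers, 4 were above background in untreated Perk-null cells, 4 in untreated Fv2E-PERK cells and 1 to 3 in the other untreated groups. The summed level of the 12 fibroblast markers was 227.8 to 301.7 on Perk-null arrays and 667 to 1021 on untreated wild-type arrays. The part of these markers in the lower contractile genes was not tested.

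**Figure D4:**
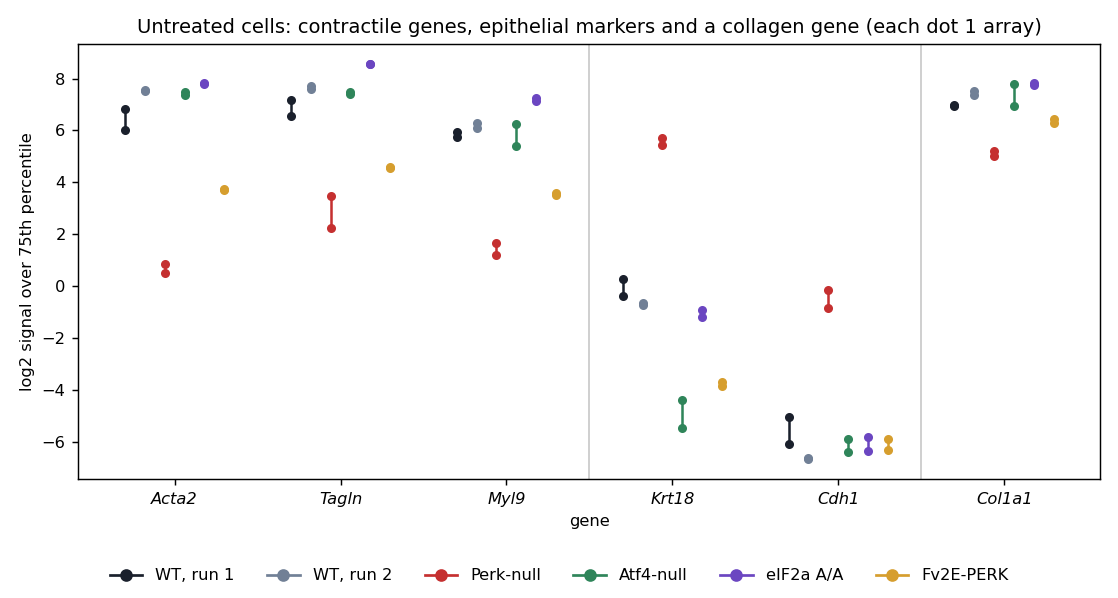
Levels in untreated cells of 3 contractile genes, 2 epithelial markers and the collagen gene Col1a1 (x axis), as log2 signal over the 75th percentile (y axis), with 1 dot per array and a line joining the 2 arrays of a line and run. Colours are lines, and levels compare lines within a gene, not genes; Perk-null arrays are lowest for Acta2, Tagln, Myl9 and Col1a1 and highest for Krt18 and Cdh1, where Cdh1 is not above background in the other lines.

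Untreated Atf4-null cells differed from wild type in both directions. Ccn1 was higher by 1.04 ± 0.29 (adjusted p = 0.0185) and Acta2 by 1.47 ± 0.39 (adjusted p = 0.0127), where 10.4% of all genes were higher. Ankrd1 was lower, at -2.08 ± 0.60 (adjusted p = 0.0224), and so was Actg2, at -2.15 ± 0.36 (adjusted p = 0.000517), where 10.7% of all genes were lower. Actg2 stood at 0.30 and 0.02 in Atf4-null cells and at 1.46 to 3.13 in wild type, without overlap. Acta2, at 7.35 and 7.47, lay within the range of the 4 wild-type arrays, above both of run 1 and below both of run 2, so its higher value rests on the run term. It did not pass the test from run 1 alone (0.99 ± 0.35, adjusted p = 0.196) or without untreated Atf4-null replicate 2 (adjusted p = 0.0657). The Ankrd1 arrays overlapped with wild type, and its call was lost without untreated Atf4-null replicate 1 (-0.69, adjusted p = 0.324) or without wild-type replicate 1 or 2 (adjusted p = 0.107 and 0.0579). Against the wild-type arrays of run 1 alone Ccn1 and Acta2 were again higher, where 11.7% of all genes were, and Ankrd1, Actg2 and Cnn1 (-1.22 ± 0.34) were lower, where 12.3% were. From run 1 alone, fitted by itself, only Actg2 was called (-2.52 ± 0.37, adjusted p = 0.0145), where 823 of all genes were called in either direction. Leaving out untreated Atf4-null replicate 2 left 2 of the 4 calls.

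The 8 genes varied together across cells, with Ankrd1 apart. Over the 12 means of group and run, Pearson's r was 0.98 between Acta2 and Tagln, 0.97 between Acta2 and Myl9 and 0.91 between Acta2 and Actg2. With the Perk-null arrays of Actg2, which were not well above background, set to the lowest signal that was, the last of these was 0.90. Ccn2 reached 0.92 with Actg2, measured either way, and 0.84 with Ccn1, whereas Ankrd1 ran from 0.13 with Cnn1 to 0.58 with Ccn2. These are descriptions over 12 points that share lines and runs. The genes whose profile was most like the mean profile of the 8, among all tested genes outside it, were Zswim6 (r = 0.97), Tnfrsf11b (r = 0.96), Acta1 (r = 0.95), Sgk1 (r = 0.95) and Mocs3 (r = 0.94), again over 12 means. Tnfrsf11b encodes the decoy receptor osteoprotegerin, Acta1 skeletal muscle alpha-actin and Sgk1 a serum-induced kinase. Tnfrsf11b ranged from -3.54 in untreated Perk-null to 3.33 in untreated eIF2a A/A cells. Neighbours in the order of the 12 means differed by less than the larger of their standard deviations in 1 of 11 pairs for Acta2, 3 for Tagln, 4 for Ccn1, Cnn1 and Myl9, and 6 for Ccn2 and Ankrd1. For Acta2, wild-type cells treated in run 1 (4.11, SD 0.43) and untreated Fv2E-PERK cells (3.73) were the 1 such pair. For Tagln these were untreated Atf4-null cells (7.45, SD 0.05) and treated wild-type cells of run 2, treated wild-type cells of run 1 and treated Atf4-null cells, and both Perk-null groups. For Ccn2 they included treated Atf4-null (0.17) and both Perk-null groups (0.06 and -0.40).

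Other genes of the same pathways were taken from lists made by function. Over all tested genes 21.2% rose in wild-type, 11.9% in Atf4-null and 3.08% in eIF2a A/A cells, and 16.3% were higher in untreated Perk-null than in wild-type cells. Over all genes 16.3% fell in wild-type, 17.1% in Atf4-null and 1.81% in eIF2a A/A cells, and 24.8% were lower in untreated Perk-null cells. In Perk-null cells 1.87% of all genes rose and 0.408% fell, and in Fv2E-PERK cells 2.79% rose and 1.28% fell. By run, 20.4% of all genes rose and 16.7% fell in wild-type cells of run 1, and 12.2% and 9.04% in run 2. Of 18 tested MRTF-SRF cytoskeletal targets other than the 8 genes, 7 fell and 3 rose in wild-type cells (median -0.25, against 0.07 over all genes). By run, 7 fell and 4 rose in run 1, and 4 fell and 1 rose in run 2. Mylk, the myosin light chain kinase, changed by -0.99 ± 0.29 (adjusted p = 0.013), with 1 of 4 treated arrays well above background, and the tropomyosin gene Tpm1 by -0.89 ± 0.19 (adjusted p = 0.00158), while the focal adhesion gene Zyx rose by 0.84 ± 0.12 (adjusted p = 5.32e-05). In Atf4-null cells 12 fell and 0 rose (median -0.90), among them Tpm1 (-1.74 ± 0.27), Vcl, which encodes vinculin (-1.36 ± 0.25), and Zyx (-1.03 ± 0.17). In eIF2a A/A cells 2 fell, Pdlim7 (-1.07 ± 0.13) and Itga5 (-0.88 ± 0.18). Limma called 0 in Perk-null and 0 in Fv2E-PERK cells, with 4 and 6 at an unadjusted p under 0.05. In untreated Perk-null cells 15 were lower and 0 higher than in wild type (median -0.87). Among them the LIM protein gene Fhl1 was at least 7.83-fold lower, a bound, since no untreated Perk-null array was well above background for it. Its limma test used the measured signals (adjusted p = 5.4e-08). Of the cytoskeletal actins, Actg1 was lower in treated Atf4-null cells (-0.58 ± 0.19, adjusted p = 0.0303) and in untreated Perk-null against wild-type cells (-0.52 ± 0.18, adjusted p = 0.0275). Actb means ran from 8.87 to 10.1 over the 12 group and run means, and Actb passed no test in any of the 5 responses or in untreated mutant against wild-type cells.

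Of 9 tested SRF immediate-early targets, 3 fell in wild-type cells, Fos (-2.06 ± 0.29, adjusted p = 4.4e-05), Junb (-1.56 ± 0.22) and Egr2 (-1.42 ± 0.41). In Atf4-null cells 7 fell, with Fos at -3.87 ± 0.40, and in eIF2a A/A cells 3 fell, Egr2, Junb and Srf itself. Junb was the 1 gene of this list called in Perk-null cells, at -1.59 ± 0.31 (adjusted p = 0.0133). By run, 3 of the list fell and 1 rose in wild-type cells of run 1, and 2 fell and 0 rose in run 2. The list's median was -0.22 in wild-type and -1.79 in Atf4-null cells.

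Of 19 further YAP-TEAD targets, 5 rose and 3 fell in wild-type cells (median 0.10), or 26.3% and 15.8%, close to the 21.2% and 16.3% over all genes. By run, 4 rose and 5 fell in run 1, and 3 rose and 1 fell in run 2. Nt5e, which encodes an ecto-nucleotidase, rose by 1.10 ± 0.28 (adjusted p = 0.00583), and Ajuba rose by 0.80 ± 0.15, whereas Igfbp3, an IGF-binding protein gene, changed by -2.54 ± 0.75 (adjusted p = 0.0143), with 2 of 4 treated arrays well above background. In Atf4-null cells 9 fell and 0 rose (median -0.62), among them Nuak2 (-1.57 ± 0.30) and Amotl2 (-1.16 ± 0.25). In eIF2a A/A cells, where Ccn1 and Ccn2 fell, limma called 0 of the 19 (median -0.19), with 3 at an unadjusted p under 0.05. In untreated Perk-null cells 11 were lower and 0 higher, with Foxf2 at least 22.1-fold and Igfbp3 at least 6.71-fold lower, both not well above background there. In untreated Atf4-null cells, where 10.4% of all genes were higher and 10.7% lower, 6 were higher and 1 lower. The kinase gene Nuak2 differed by 2.45 ± 0.29 and Nt5e by -3.14 ± 0.37.

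The regulators of both pathways were mixed. Of 28 tested, 8 rose and 6 fell in wild-type cells, or 28.6% and 21.4%, against 21.2% and 16.3% over all genes. By run, 9 rose and 7 fell in run 1, and 1 rose and 2 fell in run 2. Mrtfa, the SRF coactivator gene, changed by -0.49 ± 0.10 (adjusted p = 0.00148), Yap1 by -0.32 ± 0.12 (adjusted p = 0.0402) and Tead2 by -0.70 ± 0.15, while Tead4 rose by 1.09 ± 0.25 and Amotl1, a YAP-binding angiomotin gene, by 1.22 ± 0.23. Elk3, a ternary complex factor gene, changed by -1.13 ± 0.11. Mrtfb (-0.07 ± 0.11) and Wwtr1, the gene of TAZ (0.38 ± 0.19), did not pass the test. The Hippo kinase genes Lats1 (0.52 ± 0.12) and Lats2 (0.60 ± 0.15) also rose. Srf changed by 0.10 in wild-type cells and fell by 0.99 ± 0.14 in eIF2a A/A cells (adjusted p = 0.0011), the only regulator called there, and by 0.70 ± 0.14 in Atf4-null cells (adjusted p = 0.00226). In untreated Perk-null cells 11 regulators were lower and 0 higher, among them Vgll3 (at least 5.37-fold lower, not well above background), Srf (-1.41 ± 0.14), Mrtfa (-0.79 ± 0.14) and Yap1 (-0.57 ± 0.15).

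Of 15 tested TGF-beta genes, 9 fell and 0 rose in wild-type cells (median -0.78), where 16.3% of all genes fell. By run, 9 fell in run 1 (median -1.17) and 4 in run 2 (median -0.45). Tgfbi, a TGF-beta-induced matrix gene, changed by -3.50 ± 0.42 (adjusted p = 1.04e-05), and the ligand gene Tgfb3 by -1.70 ± 0.18. In Atf4-null cells 7 fell, and in eIF2a A/A cells 3 fell and 1 rose, the receptor gene Tgfbr2 (1.23 ± 0.16, adjusted p = 0.000329). In Fv2E-PERK cells, where 1.28% of all genes fell, 2 fell, Tgfb3 (-1.28 ± 0.25) and Smad3 (-0.78 ± 0.19). In untreated Perk-null cells 12 were lower and 0 higher than in wild type, led by Ltbp2 at -5.88 ± 0.57. Untreated Atf4-null cells had 8 higher and 0 lower, led by Tgfb3 at 3.10 ± 0.23, where 10.4% of all genes were higher.

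Relatives of the 8 genes did not all move with them. Among 21 tested genes of the CCN, actin, calponin, transgelin and light chain families, the 8 included, 10 fell and 0 rose in wild-type cells. Of these 10 falls, 6 were those of the 8 genes given above, and over all genes 16.3% fell. By run, 8 fell and 0 rose in run 1, where 16.7% of all genes fell. In run 2, 4 fell and 0 rose, where 9.04% of all genes fell. Ccn5, a CCN family gene, changed by -4.81 ± 0.45 (adjusted p = 1.03e-06), which exceeded the fall of each of the 8 genes. Its wild-type means went from 4.01 to -1.74 in run 1 and from 2.45 to -1.43 in run 2, so both runs fell. In Atf4-null cells, where Ccn2 fell, Ccn5 stood at 4.49 in untreated and 4.84 in treated cells and was not called (its untreated arrays had an SD of 1.71). Acta1 moved with Acta2 in Atf4-null cells (-2.50 ± 0.35, adjusted p = 0.000111) and in untreated Perk-null cells (-5.93 ± 0.32), and changed by -0.45 in wild type, which did not pass the test. Tagln2, a non-muscle relative of Tagln, fell by 1.87 ± 0.21 in Atf4-null cells and was not called in wild type. In Fv2E-PERK cells, where none of the 8 genes was called, 4 relatives fell, Ccn5 (-2.49 ± 0.64), Ccn3 (-1.84 ± 0.47), Cnn2 (-1.25 ± 0.16) and Ccn4 (-0.88 ± 0.17). Tagln3 was at least 2.54-fold higher with AP, its untreated arrays being not well above background. Over all genes 1.28% fell and 2.79% rose in these cells. Tagln3 was higher in untreated Perk-null than in wild-type cells (2.28 ± 0.39), opposite to Tagln.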

How the data were processed

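RNA of 24 cell samples was labelled with Cy3 and hybridised to 1 array each, per the labels' protocols. Agilent Feature Extraction 10.7.1.1 gave the spot intensity, per the file headers. The authors' deposited processed signal is an intensity on a linear scale, corrected for background and spatial trend by the scanner software, and the deposited flags, of another kind, mark spots well above background, saturated or outlying. The authors' deposited log2 values served as an alternative; 99.3% of them matched the scanner values within 0.001 after a shift per array and centring per probe, and the baseline of that centring is unknown. Their column medians ran from -0.32 to 0.49.

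Values tested were log2 intensity minus the array's 75th percentile (111 to 418 intensity units). Control and outlier spots were left out. Probes were named through RefSeq accessions: 26631 of 55681 matched 1 gene, a gene with several probes took the one of highest mean log2 signal, and genes were tested where all arrays of some group put them above background, which left 14462. limma 3.58.1 in R 4.3.3 fitted all 24 arrays with 10 group means and a term for run 2 (13 residual and 2.23 prior degrees of freedom), with Benjamini-Hochberg adjustment over all tested genes in each of 11 contrasts and two-sided tests. Genes with an adjusted p below 0.05 were called. The script was tested on simulated data. The labels' replicate numbers were taken only as names (see the pairing check under the processing alternatives). The untreated Perk-null replicate 2 file bears a name for another mock time than its label; the label was followed. Members and gene lists were chosen with earlier results of these data known. Named list genes were those with the largest changes called in wild-type cells and, chosen after their values were seen, further genes of the same lists. One gene of the lists is not reported by name here. The precision is limited by the number of arrays.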

Additional observations from a re-analysis of the deposited data

Results flagged for a closer look

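Responses of 2 lines differed past limma's threshold, by a test of the difference itself, for several of the 8 genes (log2 units; the comparisons with wild type share its arrays). The Perk-null response was above that of wild type for Ccn1 by 1.21, Acta2 by 1.75, Actg2 by 1.69 and Myl9 by 2.38, with Actg2 not well above background in Perk-null cells. The Atf4-null response was below that of wild type for Ccn1 (-2.12), Ccn2 (-4.39) and Tagln (-1.39). The eIF2a A/A response was below that of wild type for Ccn1 (-1.19) and Ccn2 (-2.28). The Atf4-null response was below that of eIF2a A/A cells for Ccn2 (-2.11), Acta2 (-2.27), Tagln (-2.10) and Actg2 (-1.82).

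Within wild type, the response of run 1 was below that of run 2 for Acta2 (-1.93), Cnn1 (-2.69), Actg2 (-1.48) and Myl9 (-1.84). The lowest treated wild-type array for Actg2, at 0.74, stood apart from the other 3; 16 sets of 4 arrays (8 genes in both wild-type groups) were examined, and chance marks about 1 in 20 groups.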

How the results depend on the processing

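The numbers of the 8 genes called were compared across alternative settings, and no called value changed sign. In wild-type cells 6 calls became 2 from run 2 alone (Myl9 lower and, newly called, Ankrd1 higher) and 1 from the wild-type arrays alone (4 to 6 with 1 array left out). In Atf4-null cells 8 became 4 from run 1 alone and 0 from their own arrays (6 to 8). In eIF2a A/A cells 2 became 4 from their own arrays (2 to 2). In Fv2E-PERK cells 0 became 7 from their own arrays, and 1 with normexp background correction, with genes above background on all arrays or with slide as a random block (0 to 0). The Perk-null response had 0 in every setting that was run. For Perk-null against the wild-type response 4 became 2 without the filter on dim probes or from run 2 alone, 1 from their own arrays or against wild type of the same run, and 0 without the run term (1 to 6; 2 without treated wild-type replicate 2 or untreated Perk-null replicate 2). For Atf4-null against wild type 3 became 1 from run 1 alone (2 to 6; 5 without untreated wild-type replicate 2, 6 without treated wild-type replicate 1). For eIF2a A/A against wild type 2 became 1 with quantile normalization, without the filter, without the run term and from their own arrays (1 to 2). For untreated Atf4-null cells 4 became 2 without the run term and 1 from run 1 or from their own arrays (2 to 4). For Atf4-null against eIF2a A/A 4 became 1 without the run term and 2 with slide as a random block (0 to 4). For untreated Perk-null cells the count was 7 in each setting that was run (7 to 7). The cause of these shifts was not tested.

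Same-numbered arrays of a line did not deviate together (correlations of -0.47 to 0.07), so the numbers do not pair the samples. With the replicate block, the Perk-null against wild-type count went to 0, eIF2a A/A against wild type to 1 and Atf4-null against eIF2a A/A to 1, and other counts stayed within 1.5 times. Untreated Perk-null replicate 1 shared a slide with treated replicate 2, and untreated replicate 2 shared another with treated replicate 1. The Perk-null numbers were also crossed in this way, which their correlation of -0.47 bears on. Then 1 of the 8 genes was called in the comparison with wild type, and 157 of all genes in the Perk-null response (153 with the numbers as given).

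Counts over all genes moved more, mostly downward, without the run term: 5423 to 3604 in wild type, 330 to 113 in Perk-null, 4193 to 2420 in Atf4-null, 707 to 223 in eIF2a A/A, 589 to 186 in Fv2E-PERK cells, 1904 to 769, 4406 to 2402 and 2632 to 1252 for Perk-null, Atf4-null and eIF2a A/A against wild type, 3048 to 1040 in untreated Atf4-null cells and 1824 to 663 for Atf4-null against eIF2a A/A. From their own arrays they were 0, 0, 3276 and 4156 in Perk-null, Atf4-null, eIF2a A/A and Fv2E-PERK cells, 1107 and 1644 for Perk-null and Atf4-null against wild type, 1081 in untreated Atf4-null cells and 274 for Atf4-null against eIF2a A/A. From run 1 alone they were 1295 in wild type, 253 in Atf4-null, 476 for their difference and 823 in untreated Atf4-null cells, and from run 2 alone 915 in Perk-null cells. The block gave 344 in eIF2a A/A, 283 in Fv2E-PERK and 1177 for Perk-null against wild type (1206 against wild type of the same run). Normexp gave 436 in eIF2a A/A, and no filter 217 in Perk-null and 369 in Fv2E-PERK cells. Other planned settings moved single changes of the 8 genes past the threshold or back in 84 cases downward and 19 upward, while 861 kept their direction and side and 17 changes past no threshold turned sign. With 2 arrays a group in most lines, a p that misses the threshold does not show that values did not differ, and Actg2 in Perk-null cells has a bound only.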
